A study of Mus musculus with 30 samples.

Results

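Of 42029 non-coding transcription units in the deposited table, 2344 overlapped, on the same strand and by at least 1 base, a copy of a long terminal repeat (LTR) retroelement of a superfamily other than ERVK, and no ERVK copy. Units over the ribosomal precursor gene Rn45s were left out. By the superfamily of the copies beneath them, 667 units lay over ERV1, 941 over ERVL and 628 over ERVL-MaLR, and 108 lay over several superfamilies or another one. The rule used positions and names only. How the authors defined the non-coding units is not known from the sources used here. All 42029 start and end on 200-base steps, and a unit may be listed because it was transcribed at a later time. TT-seq purifies and sequences the RNA that cells make during a short pulse of 4-thiouridine, here of 10 minutes, and so reads ongoing transcription. The cells were mouse embryonic stem (ES) cells of 1 line, dTKO, grown with LIF and serum on gelatin. By their labels, all libraries carry Setdb1fl/fl, Suv39h1fl/fl and Suv39h2-/-, those at 0 h included. The groups are 0, 3, 12, 24 and 48 h of auxin and dTAG13, compounds that trigger the breakdown of proteins carrying degron tags, with 3 biological repeats per time (n = 3 for every mean below). The study asks how loss of the histone H3K9 methyltransferases alters transcription, with 0 h as the baseline, and no line of another genotype is compared here.

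LTR retroelements are the remains of retroviruses. Each full element carries an LTR at both ends, and the LTR holds the promoter that starts transcription and the signal that ends it. A solo LTR is what stays after the internal part (named with the ending -int) is lost by recombination. In ES cells many such copies are held silent by H3K9 trimethylation, which SETDB1 places together with TRIM28 and KRAB zinc finger proteins. The superfamilies differ in age and control. MERVL, an ERVL element with the LTR named MT2_Mm, is transcribed in the 2-cell embryo and in rare ES cells that resemble it. ERV1 holds gammaretroviral families such as MMERGLN and VL30 (MMVL30-int). The ERVL-MaLR families MT and ORR1 are short non-autonomous elements, many of them old.

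By position, the start of a RefSeq gene (assembly GRCm38.p6) fell on the same strand within an LTR copy of 10 members, which gives 300 bases of sequence for each, 250 before the start and 50 from it on. Of these, 6 are shown, chosen after their values were seen, because they set an MT2_Mm promoter beside promoters of the other superfamilies. The first 3 lie in MT2_Mm copies. Capitals mark the 27 bases that all 5 matched MT2_Mm windows share as their longest common run, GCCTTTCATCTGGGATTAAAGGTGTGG, which 10 of 32851 RefSeq promoter windows (0.0304%) hold on the gene strand. The Sp110 window holds it 2 times and the others shown hold it 1 time.
LOC105246046, chr15:102602758-102603057 (+), MT2_Mm: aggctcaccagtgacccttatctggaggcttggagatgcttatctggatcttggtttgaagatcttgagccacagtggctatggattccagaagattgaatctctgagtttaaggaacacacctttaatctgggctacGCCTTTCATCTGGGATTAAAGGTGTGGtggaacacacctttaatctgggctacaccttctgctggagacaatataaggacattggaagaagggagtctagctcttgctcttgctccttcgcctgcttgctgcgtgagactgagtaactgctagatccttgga
Gm52608, chr3:69854442-69854741 (+), MT2_Mm: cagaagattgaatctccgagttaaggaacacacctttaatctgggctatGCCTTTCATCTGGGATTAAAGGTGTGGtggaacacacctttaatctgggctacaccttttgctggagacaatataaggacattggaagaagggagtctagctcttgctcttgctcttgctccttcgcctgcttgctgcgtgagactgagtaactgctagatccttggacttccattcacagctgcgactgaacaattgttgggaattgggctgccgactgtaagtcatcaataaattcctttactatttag
Sp110, chr1:85603842-85604141 (-), MT2_Mm: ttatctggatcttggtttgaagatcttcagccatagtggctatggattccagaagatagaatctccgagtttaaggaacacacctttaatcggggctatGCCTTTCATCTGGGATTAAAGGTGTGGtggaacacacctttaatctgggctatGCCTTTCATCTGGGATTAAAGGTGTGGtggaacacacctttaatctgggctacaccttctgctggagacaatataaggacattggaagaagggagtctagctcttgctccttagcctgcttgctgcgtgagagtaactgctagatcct
Without gaps, the LOC105246046 and Gm52608 windows were identical at 159 of 211 aligned bases (75.4%), and their longest common run was 63 bases. The next 2 lie in ORR1A copies of the ERVL-MaLR superfamily, where capitals mark the 13 bases that these windows share, and the last lies in an LTRIS2 copy of the ERV1 superfamily, where capitals mark AATAAA.
Gm15614, chr5:32583337-32583636 (-), ORR1A0: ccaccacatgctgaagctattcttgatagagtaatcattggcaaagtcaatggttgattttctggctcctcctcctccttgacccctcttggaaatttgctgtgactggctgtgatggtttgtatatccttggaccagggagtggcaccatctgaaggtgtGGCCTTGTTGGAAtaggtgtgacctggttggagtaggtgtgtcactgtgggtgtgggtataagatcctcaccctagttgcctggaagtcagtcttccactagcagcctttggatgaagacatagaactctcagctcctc
Gm40573, chr12:108780606-108780905 (-), ORR1A4: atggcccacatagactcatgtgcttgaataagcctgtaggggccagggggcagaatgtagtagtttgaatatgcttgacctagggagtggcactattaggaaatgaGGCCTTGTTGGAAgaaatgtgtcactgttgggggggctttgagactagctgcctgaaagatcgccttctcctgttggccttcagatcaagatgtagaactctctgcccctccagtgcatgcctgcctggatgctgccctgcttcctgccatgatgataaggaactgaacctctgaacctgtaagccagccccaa
Gm41131, chr14:34364877-34365176 (+), LTRIS2: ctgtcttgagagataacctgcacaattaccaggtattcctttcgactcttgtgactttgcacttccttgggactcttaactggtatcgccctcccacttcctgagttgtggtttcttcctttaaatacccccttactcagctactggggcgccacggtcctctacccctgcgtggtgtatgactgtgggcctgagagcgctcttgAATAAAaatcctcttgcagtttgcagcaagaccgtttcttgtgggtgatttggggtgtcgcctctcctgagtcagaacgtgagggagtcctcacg
The promoter motif TATAAA and the poly(A) signal motif AATAAA were searched on both strands. None of the 6 windows shown holds TATAAA on either strand, against 13.6% of all RefSeq windows. Among all 10 matched windows, only that of Gm42031 (RLTR4_Mm, ERV1), not shown, holds it, on the gene strand from base -27. So few windows do not tell whether LTR promoters differ from that share. The letters AATAAA stand in the Gm52608 window and in the Gm41131 window on the gene strand, and in 19.6% of all windows on either strand.

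Values below are scaled reads, that is, reads over 1 size factor per library as deposited. The unit of LOC105246046 (chr15:102602601-102615601, MT2_Mm at its start) held 26.0, 16.6 and 22.3 scaled reads in the 3 libraries at 0 h, and 417, 494 and 457 at 48 h. The unit of Gm52608 (chr3:69848801-69862401) held 10.6, 13.3 and 12.9 at 0 h, and 158, 152 and 157 at 48 h. Both units were thus high at 48 h in every library, with no overlap between the times, and their log2 changes were 4.35 and 3.57. The short unit at Sp110 had no read at 0 h and 2.22, 5.42 and 3.82 scaled reads at 48 h, too few for the test. The unit of Gm15614 (chr5:32551201-32587601) rose by 8.13 on the log2 scale at 48 h, the most of any member, and its values are given further on. The unit of Gm40573 (chr12:108768201-108794201) went from a mean of 749 to 554 scaled reads (log2 change -0.44, adjusted p = 0.00187). The unit of Gm41131 (chr14:34358201-34372401) held 378, 423 and 432 at 0 h, and 247, 219 and 225 at 48 h (log2 change -0.83, adjusted p = 4.12e-07). For Gm52608, Gm15614, Gm40573 and Gm41131 the LTR copy shown lies inside the unit, which starts elsewhere. The MT2_Mm copy at Gm52608 spans 69854289 to 69854787, in a unit that starts at 69848801. The values of these units are thus not those of the promoters shown. The change at Gm40573 is also close to the -0.37 of the median gene.

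The libraries held 37.1 to 42.3 M reads over all units and 4.29 to 5.37 M in non-coding units outside Rn45s. On the log2 scale, the median of all 15261 tested genes moved by -0.24 (3 h), 0.18 (12 h), -0.08 (24 h) and -0.37 (48 h). Small falls at 3 and 48 h are therefore close to what the typical gene shows, and whether they reflect transcription or scaling was not tested. Dividing each library by its median gene sets this shift to about 0, and results that turn with it are given in both ways. Nascent RNA of the targeted genes does not check the loss of a degron-tagged protein. Setdb1 held a mean of 846 scaled reads at 0 h and 732 at 48 h (adjusted p = 0.129), and Suv39h1 held 483 and 455 (adjusted p = 0.562). Suv39h2 held 1091 and 803 (log2 change -0.44, adjusted p = 0.00112), so reads were counted at this gene in libraries labelled Suv39h2-/-. Whether they come from outside the deleted part is not known here, so they do not check the label. The summed scaled reads of the 8 ES cell markers went from 16308 to 18052 per library at 0 h to 11377 to 11964 at 48 h, and all were above 0. Trophectoderm markers summed to 383 to 414 at 0 h and 503 to 647 at 48 h, without overlap. Those of fibroblasts (254 to 314, then 304 to 422), primitive endoderm (417 to 456, then 447 to 502) and neural cells (467 to 520, then 493 to 548) had overlapping ranges at these times. The part of these cell types in the results was not tested.

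The median length of the 2344 units was 3200 bases, against 600 for the 33997 non-coding units over no LTR copy, and 1625 lay over a single LTR copy. No GENCODE gene lay on the same strand for 1880 of them. By place, 1618 were intergenic, 413 antisense to a gene, 145 divergent from a gene start within 1000 bases, 95 within 10000 bases downstream of a gene, and 73 overlapped a gene on their own strand. The LTR copy lay at the start of the unit (within 100 bases) in 771, at the end in 430, at both ends in 565 and inside in 578. ERVL units began in an LTR more often than the rest, 782 of 941, against 313 of 667 over ERV1 and 193 of 628 over ERVL-MaLR. Another repeat of the LINE or SINE class lay under 277 units.

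For the test, a mean of at least 10 scaled reads over all 15 libraries was required, which 1172 members passed (357 ERV1, 370 ERVL, 361 ERVL-MaLR and 84 mixed). This minimum favours units that are high at any time, since a unit silent at 0 h passes only if it rose. Only 822 members had a mean of 10 at 0 h itself: 259, 159, 343 and 61 in the same order. Counts are therefore given for the 1172, for these 822, and without any minimum for all 2344. If the list of units was drawn from these libraries, even counts without a minimum favour units high at some time. A unit was called where the Benjamini-Hochberg adjusted p of the limma test over all tested non-coding units was under 0.05. Changes are differences of log2(scaled reads + 1). Of the 1172 tested members, 13 had no read in any 0 h library, and setting these at the bound that 3 reads over the group allow left the medians of every group as given here. With so few such units the medians could hardly move, so this says little about the floor.

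At 3 h, 79 of 1172 members were called higher and 105 lower, against 7.74% and 8.06% of all 15730 tested non-coding units. ERV1 had 46 higher and 26 lower of 357, ERVL had 6 and 30 of 370, and ERVL-MaLR had 18 and 43 of 361. The 105 falls rest on single libraries and on scaling: leaving out the 0 h library of replicate 2 left 39, that of replicate 3 left 58, leaving out the 3 h library of replicate 2 left 45, and dividing by the median gene left 34. At 12 h, 488 members were called higher and 57 lower (background 29.4% and 11.1%). ERV1 units led, with 190 of 357 higher and a median log2 change of 0.63. ERVL units had 150 of 370 higher (median 0.55) and ERVL-MaLR units 106 of 361 (median 0.15). Without any minimum 584 of 2344 members were higher at 12 h and 57 lower (background 15.4% and 5.19%), and of the 822 already at 10 scaled reads at 0 h, 236 were higher and 52 lower (background 13.5% and 13%).

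At 24 h, 613 members were higher and 170 lower (background 30.4% and 24.8%), and the groups had parted. ERVL had 275 of 370 higher with a median of 1.43, while ERV1 had 189 of 357 and a median of 0.63. At 48 h, 621 members were higher and 302 lower (background 29.3% and 39.4%). ERVL reached 303 of 370 higher, 33 lower and a median of 3.37. ERV1 had 183 higher and 89 lower of 357 with a median of 0.59. After division by the median gene, the ERV1 median was 0.46 at 12 h (180 higher, 42 lower) and 0.94 at 48 h (213 higher, 49 lower), so whether ERV1 levels off after 12 h depends on the scaling. ERVL had 313 higher and 16 lower at 48 h on that scale, with a median of 3.71. ERVL-MaLR had 88 higher and 158 lower of 361 with a median of -0.32, close to the -0.44 of 11880 units over no LTR copy (1911 higher, 5588 lower). After division by the median gene, the ERVL-MaLR counts turned to 128 higher and 92 lower with a median of 0.03, so their net fall follows the scaling. The 2676 tested units over ERVK copies, by comparison, had 2081 higher and a median of 3.98.

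**Figure D1:**
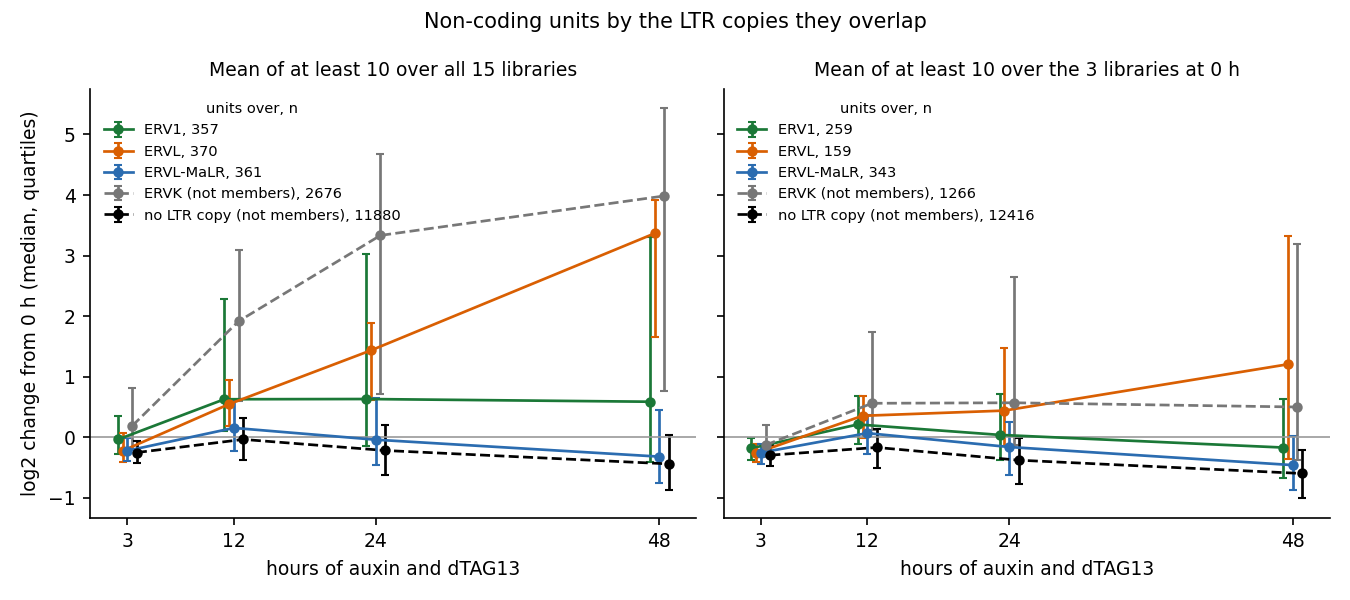
Median log2 change from 0 h (points) and quartiles (bars) by hours of auxin and dTAG13, for units over ERV1, ERVL and ERVL-MaLR copies (solid) and, for comparison, over ERVK copies and over no LTR copy (dashed). With a minimum over all libraries (left) ERVL rises to 3.37 at 48 h and ERV1 stays near 0.6 from 12 h on, on the deposited scale; with the minimum at 0 h (right) the 48 h medians are 1.20 and -0.17.

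Without any minimum, 1294 of 2344 members were called higher at 48 h and 344 lower, against 24.5% and 22.4% of 42022 non-coding units with a read. These were 790 and 36 of 941 over ERVL, 301 and 105 of 667 over ERV1, and 140 and 182 of 628 over ERVL-MaLR. Among members already at 10 scaled reads at 0 h, 243 of 822 were higher and 334 lower (background 12% and 51.4%). ERVL had 92 higher and 35 lower of 159 (median 1.20), ERV1 74 and 99 of 259 (median -0.17), and ERVL-MaLR 53 and 178 of 343 (median -0.46). Most ERV1 and ERVL calls without a minimum thus came from units below 10 scaled reads at 0 h. In the authors' deposited table, 544 of 941 ERVL units are marked up at 48 h, by a call rule that no source used here states. The same table marks up 212 of 667 ERV1 units, 89 of 628 ERVL-MaLR units and 16.7% of all non-coding units.

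The interval from 12 to 48 h does not use the 0 h libraries. Of 370 ERVL units, 288 were higher at 48 h than at 12 h and 35 lower, with a median of 2.79. Of 357 ERV1 units, 111 were higher and 106 lower (median -0.13), and of 361 ERVL-MaLR units 54 were higher and 169 lower (median -0.44). Over all non-coding units 20.9% were higher and 32.1% lower. Division by the median gene turned the ERV1 and ERVL-MaLR medians to 0.40 (182 higher, 32 lower) and 0.09 (111 higher, 68 lower), and all non-coding units to 0.24. ERVL had 308 higher and 13 lower on that scale, with a median of 3.31. The first time at which a unit was called higher was counted too. Of ERV1 units, 46 were first called at 3 h and 144, 9 and 7 at the later times in turn. For ERVL these were 6, 144, 134 and 29.

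**Figure D2:**
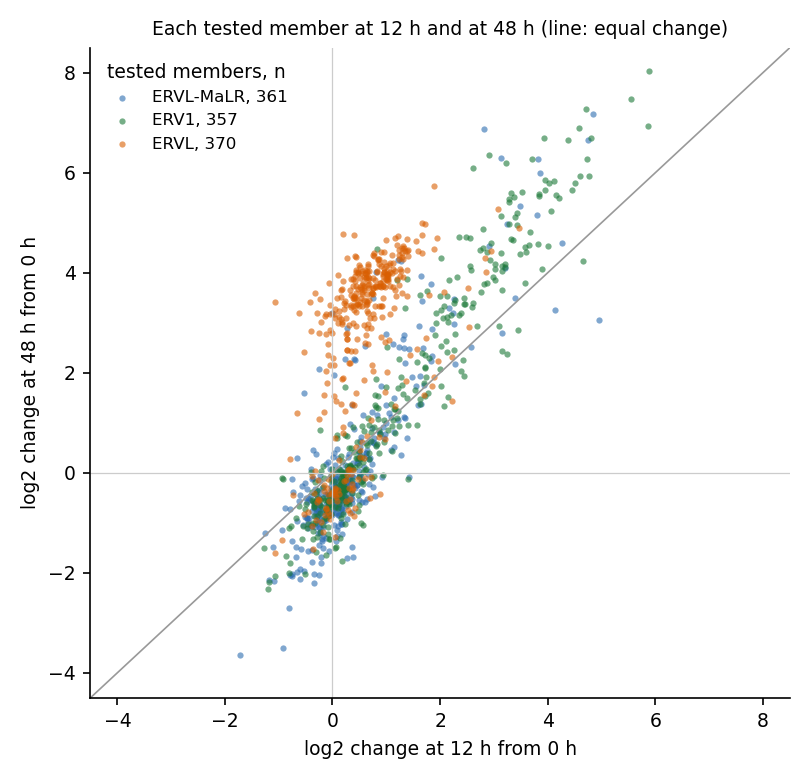
Log2 change from 0 h at 12 h (horizontal) and at 48 h (vertical) for each tested ERV1, ERVL and ERVL-MaLR unit; the line marks equal change. Both axes share the 0 h libraries, so their correlation says nothing. Most ERVL units lie far above the line (median 3.37 at 48 h and 0.55 at 12 h), ERV1 units lie on both sides of the line, and ERVL-MaLR units centre near 0 on both axes.

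Nearly every tested unit over MERVL or its LTR was called higher by 48 h. Of 184 tested units over both MT2_Mm and MERVL-int, 181 were higher at 48 h and none lower, with a median of 3.60. Of 112 units over MT2_Mm without MERVL-int, 105 were higher and 3 lower (median 3.64). Of 22 over MERVL-int alone, 19 were higher and 1 lower (median 3.06). Members over neither had 316 higher and 298 lower of 854 and a median of -0.11. Of these units, 57 with both parts, 44 with MT2_Mm alone and 6 with MERVL-int alone had 10 scaled reads at 0 h. Among them 54, 37 and 3 were higher and 0, 3 and 1 lower, with medians of 3.41, 2.39 and 1.03. The 346 units over both parts summed to 2824 ± 110 scaled reads before treatment (SD), then to 4540 ± 573 by 12 h, 7424 ± 1081 by 24 h and 24108 ± 1672 by 48 h. This sum had thus grown 1.61-fold by 12 h and 8.54-fold by 48 h. The part of their reads that lay under LTR copies went from 19.7% ± 1.09 to 30.3% ± 0.416 (SD). Repeat rows and unit rows may not count reads alike, so this and later shares are rough. With the reads under the copies taken away, 134 of 139 units over both parts were still higher at 48 h (median 3.69).

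For units over MT2_Mm or MERVL-int, the place of the LTR copies went with the outcome. Copies of any LTR family under the unit count for its place. With a copy at the unit's start only, 261 of 263 units were higher at 48 h and none lower, with a median of 3.69. With a copy at both ends, 18 of 18 were higher. With all copies inside, 17 of 24 were higher and 2 lower, and with a copy at the end only 9 of 13 were higher and 2 lower. By family, 159 of 160 units that begin in MT2_Mm and 131 of 132 that begin in MERVL-int were higher at 48 h, with none lower. A unit may count under both. Among units at 10 scaled reads at 0 h the counts were 78 of 80 at the start, 11 of 18 inside and 2 of 6 at the end. ERV1 units ran the same way, with 62 of 97 higher at the start, 91 of 186 inside and 18 of 60 at the end, though at 0 h levels of 10 or more the start (18 of 58) and the inside (50 of 148) were alike. ERVL-MaLR units had 22 of 68 higher at the start and 12 of 108 at the end. The share at the start is near the 29.3% of all tested non-coding units. The difference between places was not tested, since it rests on counts of units that share families.

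**Figure D3:**
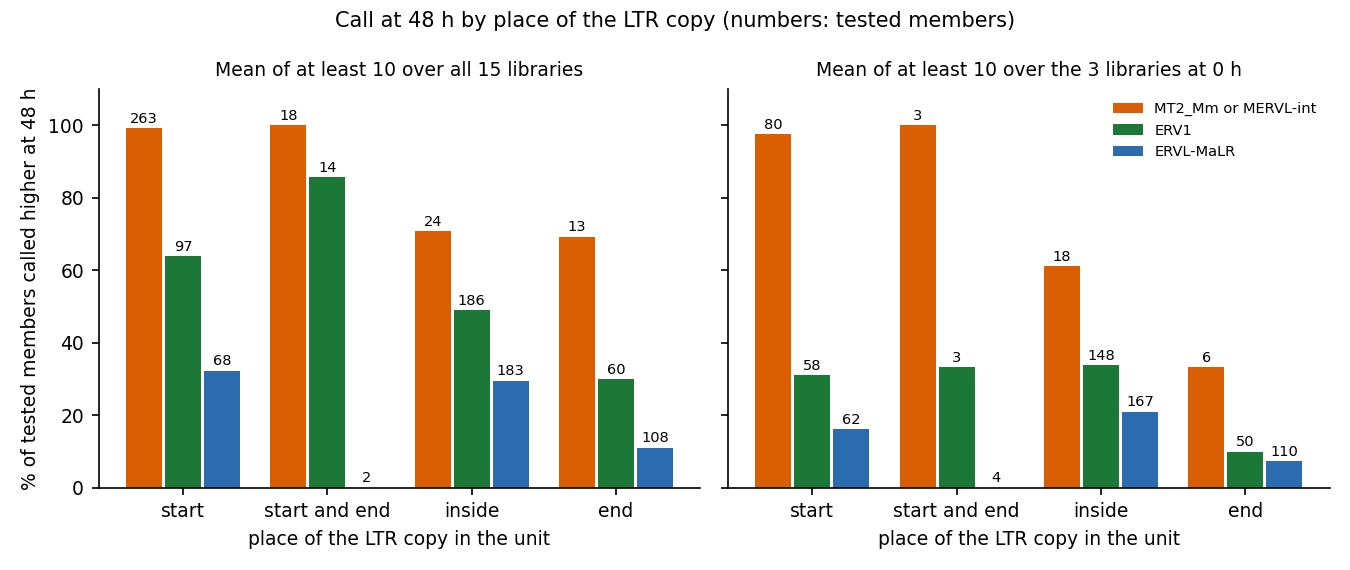
Share of tested members called higher at 48 h by the place of the LTR copies (of any family) in the unit, for units over MT2_Mm or MERVL-int, ERV1 and ERVL-MaLR copies. Numbers above bars are tested members. Left, minimum over all libraries; right, minimum at 0 h. MT2_Mm or MERVL-int units with an LTR copy at the start are nearly all higher in both panels (261 of 263 and 78 of 80).

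Of 296 tested MT2_Mm units, 129 were higher at 12 h and 259 at 24 h, against 29.4% and 30.4% of all tested non-coding units. The single units below were picked by rank, 2 of them for their rise from 12 to 48 h. They therefore do not show when the group rose. The unit chr12:76748601-76755601, which begins in an MT2_Mm copy 9972 bases from Churc1, held 5.69, 6.65 and 7.72 scaled reads at 0 h. By 12 h these were 19.4, 27.3 and 23.7, by 24 h 51.5, 90.8 and 56.6, and by 48 h 220, 252 and 255. Every later time lay above the one before in all libraries, and the log2 change at 48 h was 4.99 (SE 0.218, adjusted p = 3.00e-20). The unit chr11:83056601-83059001, which begins in MT2_Mm 6111 bases from Slfn2, a gene of T cell quiescence, held 0.813, 2.5 and 3.43 at 0 h and 5.07, 2.73 and 0.877 at 12 h. It then held 11.6, 12.2 and 17.7 at 24 h and 75.3, 89.9 and 81.0 at 48 h. The 12 h libraries overlapped those at 0 h and the 48 h libraries did not. From 12 to 48 h it rose by 4.57 on the log2 scale (SE 0.424, adjusted p = 6.63e-11), the most of all members ranked for that interval. The next was a MERVL unit, chr8:86287001-86294201, which began at 4.88, 4.99 and 4.29, stood at 0, 2.73 and 4.39 by 12 h, and reached 53.2, 55.0 and 72.6 by 48 h. Its libraries at 48 h lay above all others shown (log2 change from 0 h 3.41, adjusted p = 6.49e-09), while those at 12 h overlapped those at 0 h with a lower mean (log2 change -1.07, adjusted p = 0.0359).

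The ERVL unit with the largest change, chr6:124318001-124332001, begins in MT2_Mm and runs antisense to Cd163, a scavenger receptor gene of macrophages. It held 0.813, 4.16 and 0.857 scaled reads at 0 h and 134, 122 and 160 at 48 h, with a log2 change of 5.74 (SE 0.323, adjusted p = 3.30e-17). Another MT2_Mm unit, chr11:105434401-105455001, antisense to March10, fell first. It held 24.4, 12.5 and 14.6 at 0 h and 8.10, 6.36 and 7.75 at 3 h, the largest fall of any ranked member at that time (log2 change -1.06, adjusted p = 0.00122). By 48 h it held 171, 174 and 194 (log2 change 3.37), above 0 h in every library. One ERVL unit in the top rank was over another family: chr12:18797201-18800001, which begins in RMER10A, had 1 read in the 3 libraries at 0 h. It held 29.5, 38.7 and 39.0 scaled reads at 48 h, a ratio of 128 with a 95% counting interval of 22.7 to 5105.

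Among other ERVL families, MT2B1 units had 9 higher and 8 lower of 24 at 48 h (median -0.18), MT2B units 1 and 4 of 13 (median -0.38), RMER10A units 7 and 8 of 20 (median -0.09) and RMER15 units 3 and 6 of 14 (median -0.45). MERVL_2A-int, a relative of MERVL-int, had 9 higher and none lower of 11 (median 2.66). Of the 5 such units at 10 scaled reads at 0 h, 3 were higher and none lower (median 1.73). The 2 units that fell most were chr11:102578801-102596001, over RMER15 and divergent from Gm11627, and chr5:143116401-143124201, which begins in MT2A 3381 bases from Rnf216. The first went from 164 ± 7.94 to 56.6 ± 5.88 scaled reads (SD; log2 change -1.52, adjusted p = 2.09e-11). The second went from 88.2 ± 10.1 to 35.5 ± 5.31 (SD; log2 change -1.29, adjusted p = 5.25e-08). In both, the 48 h libraries lay below all 0 h libraries.

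One unit dominates the ERVL sum and does not follow the group. The 400-base unit chr17:70963601-70964001, which ends 57 bases into an MT2_Mm copy and lies 9962 bases downstream of Myl12b, held 66669, 61964 and 65574 scaled reads at 0 h, 73.0% of all ERVL reads. It held 49923, 52936 and 55563 at 48 h (log2 change -0.29, adjusted p = 0.0323), and its change was 0.07 after division by the median gene. Without it, the other 940 ERVL units summed to 23914 ± 1202 at 0 h and 57546 ± 3209 at 48 h (SD), a 2.41-fold rise, against 1.24-fold with it. Of its reads at 48 h, 0.000335% lay under the LTR copy.

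Within ERV1, a few families had high shares of early calls, against 7.74% (3 h) and 29.4% (12 h) of all tested non-coding units called higher. MMERGLN-int units had 42 of 45 higher at 12 h (median 3.13) and 42 of 45 at 48 h (median 4.58), and 15 of 45 were already higher at 3 h with none lower. Units over its LTR, MMERGLN_LTR, had 16 of 59 higher at 3 h, 44 at 12 h (median 2.48) and 44 at 48 h (median 3.61). MERV1_I-int units had 13 of 15 higher at both 12 h (median 4.03) and 48 h (median 5.57). RLTR1B-int units had 24 of 31 higher at 12 h and 25 at 48 h, and RLTR1B units 46 and 42 of 59. LTRIS2 units had 45 of 74 higher at 12 h (median 0.79) and 42 higher and 13 lower at 48 h (median 0.75). Other ERV1 families had calls both ways at 48 h: LTRIS_Mus had 11 higher and 5 lower of 23 (median 0.60), RLTR6-int 5 and 4 of 11, RLTR6_Mm 4 and 3 of 11, RLTR14-int 3 and 5 of 10 (median -0.38), and LTRIS4A 1 and 3 of 15 (median -0.31). A unit over 2 families counts under both.

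These counts include units that passed the minimum only because they rose. Of 13 MMERGLN-int units already at 10 scaled reads at 0 h, 2 were higher at 3 h and 10 at 12 h. For MMERGLN_LTR 3 of 29 were higher and 3 lower at 3 h, and 14 were higher at 12 h. At 12 h 24 of 38 RLTR1B units, 23 of 56 LTRIS2 units and 2 of 5 MERV1_I-int units were higher, against 13.5% of all units with that minimum. Among units of the same ERV1 families already at 10 scaled reads at 0 h, for MMERGLN-int 10 of 13 were higher at 48 h (median 2.51), for MMERGLN_LTR 15 of 29 with 8 lower (median 0.42), for RLTR1B 21 of 38 with 8 lower (median 0.78), and for LTRIS2 21 of 56 with 15 lower (median 0.03). Of the 5 such MERV1_I-int units 2 were higher and 3 lower (median -0.54). With reads under the copies taken away, 149 of 318 ERV1 units were higher at 48 h and the median was 0.29 in place of 0.59. In MMERGLN_LTR units the rows of the copies held 117% of the units' own scaled reads at 48 h, so reads were not counted alike in the 2 kinds of row, and this subtraction is rough there. MERV1_I-int units summed to 159 ± 12.0 scaled reads before treatment, 201 ± 12.3 after 3 h, 850 ± 95.2 after 12 h and 2025 ± 94.7 after 48 h (SD), 12.8-fold in all.

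**Figure D4:**
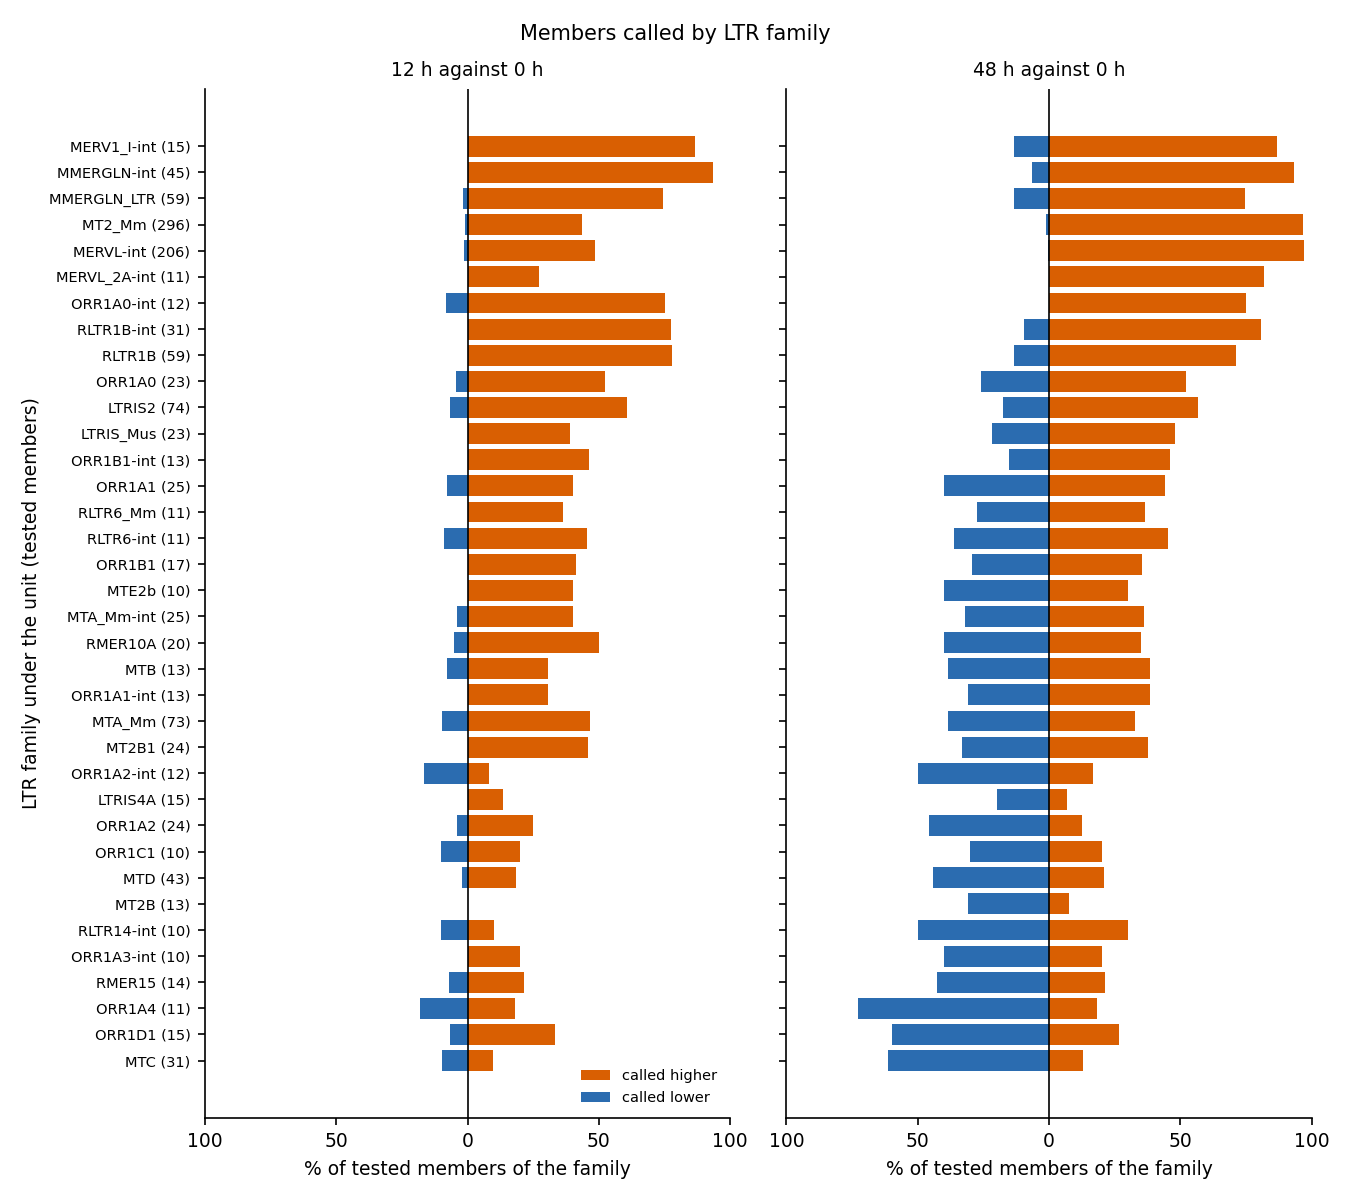
Share of tested members called higher (to the right) and lower (to the left) at 12 h and 48 h against 0 h, for each LTR family with at least 10 tested members (number in brackets), ordered by the median change at 48 h. With this minimum over all libraries, MMERGLN-int, MERV1_I-int and RLTR1B units are mostly higher at 12 h already. Of MT2_Mm and MERVL-int units, 129 of 296 and 100 of 206 are higher at 12 h, and 286 and 200 at 48 h. At 24 h, not shown, 259 and 180 were higher. MTC, ORR1D1 and ORR1A4 units are mostly lower at 48 h.

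The MMERGLN unit chr17:34744201-34763801 lies 304 bases from C4b, a complement gene, and covers the internal part and both LTRs of 1 element. Before treatment it held 4.88, 3.33 and 6.0 scaled reads. After 3 h it held 26.3, 14.0 and 20.2, after 12 h 271, 382 and 355, after 24 h 1143, 1430 and 972, and after 48 h 1367, 1652 and 1437. The 3 h libraries already lay above all 0 h libraries, and the 24 and 48 h libraries overlapped. The log2 change was 1.87 at 3 h (adjusted p = 2.35e-09) and 8.04 at 48 h (SE 0.185, adjusted p = 9.37e-28). Of its reads at 48 h, 54.1% lay under the element, and the change was 7.07 with those taken away.

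Another MMERGLN unit, chr6:132960401-132970201, lies 2557 bases from the bitter taste receptor gene Tas2r131 and had 3 reads in all at 0 h. It held 11.5, 8.27 and 7.75 scaled reads at 3 h, which with the unit below made it 1 of the 2 members that rose most at that time. By 48 h it held 327, 289 and 287, a ratio to 0 h of 362 with a 95% counting interval of 123 to 1756. Nearly all of its reads (96.1% at 48 h) lay under the element. With those taken away its log2 change at 3 h was 0.52 in place of 2.56 and was no longer called.

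The LTRIS2 unit chr13:52356201-52372201 begins in the LTR copy and held 1.63, 1.66 and 5.14 scaled reads before treatment. It reached 28.4, 16.5 and 14.0 by 3 h, 181, 210 and 221 by 12 h, and 400, 442 and 444 by 48 h. All 3 h libraries lay above all 0 h libraries (log2 change 2.5, SE 0.231, adjusted p = 5.74e-10). Only 0.117% of its reads at 48 h lay under the LTR copy. The RLTR1B unit chr3:20041601-20052401, 5410 bases from Hltf, a DNA repair helicase gene, held 0.813, 2.5 and 3.43 at 0 h and 455, 487 and 475 at 48 h (log2 change 7.28, adjusted p = 2.51e-24). Here too the 48 h libraries lay far above all 0 h libraries.

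The most abundant ERV1 unit, chr17:17491401-17523801, covers RLTR1B-int copies with RLTR1B at either end and a 277-base piece of MMVL30-int between them. From 1801, 2097 and 1995 scaled reads before treatment it went to 3816, 4935 and 4281 by 12 h and to 4466, 4977 and 4912 by 48 h. The log2 change was 1.14 at 12 h and 1.29 at 48 h (adjusted p = 1.55e-11), and 0.15 from 12 to 48 h (adjusted p = 0.306). After division by the median gene these were 0.96, 1.65 and 0.68 (adjusted p = 4.95e-11 for the last), so whether it rose after 12 h depends on the scaling. The 2 ERV1 units that fell most were chr15:97586801-97596201, which begins in RMER2, and chr11:53322401-53335801, which ends in RLTR41 and runs antisense to Zcchc10. The first went from 91.0, 103 and 72.9 scaled reads to 42.3, 32.7 and 39.5 by 12 h and 14.0, 17.8 and 19.1 by 48 h (log2 change -2.32, adjusted p = 2.96e-11). The second went from 287 ± 27.4 to 63.1 ± 12.4 (SD; log2 change -2.18, adjusted p = 9.86e-15). Both fell at each step of the time course in their means, with no overlap between 0 and 48 h.

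**Figure D5:**
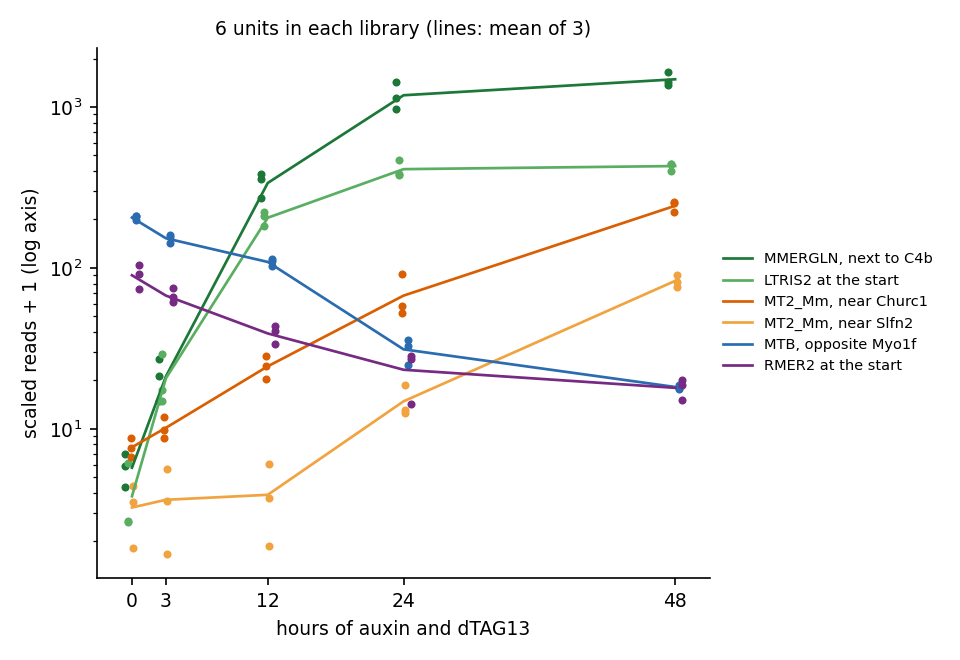
Scaled reads plus 1 (log axis) of 6 units in each of the 15 libraries (points) by hours of auxin and dTAG13, with lines through the means of 3. The MMERGLN and LTRIS2 units climb until 24 h and change less from then to 48 h, the 2 MT2_Mm units still climb from 24 to 48 h, and the MTB and RMER2 units fall throughout.

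By ERVL-MaLR family, ORR1A0-int had 9 higher and none lower of 12 at 48 h (median 1.66), and ORR1A0 12 higher and 6 lower of 23 (median 0.89). Lower calls are read against 39.4% of all tested units and 47.0% of those over no LTR copy. MTC had 4 higher and 19 lower of 31 (median -0.67), ORR1A4 2 and 8 of 11 (median -0.45), ORR1A2 3 and 11 of 24 (median -0.33) and MTD 9 and 19 of 43 (median -0.36). The shares of ORR1A2 (45.8%) and MTD (44.2%) are near that background, and those of MTC (61.3%) and ORR1A4 (72.7%) above it, a difference that was not tested. The ORR1A4 median is close to the -0.37 of the median gene. Family counts after division by the median gene are not given here. Among units with 10 scaled reads at 0 h, ORR1A0 had 8 higher and 7 lower of 20 (median 0.02), ORR1A0-int 5 and 1 of 9, MTC 1 and 21 of 31 (median -0.79), and MTD 7 and 22 of 44 (median -0.48), against 12% higher and 51.4% lower. MTA_Mm had 34 higher and 7 lower of 73 at 12 h (median 0.41), and 24 higher and 28 lower at 48 h (median -0.15). With the 0 h minimum the latter were 17 and 31 of 67 (median -0.31). Of the 106 ERVL-MaLR units called higher at 12 h, 74 were also called higher at 48 h. An ERVK copy lay within 10000 bases of 199 tested ERVL-MaLR units, of which 62 were higher and 77 lower at 48 h, while of the 162 farther away 26 were higher and 81 lower. For ERVL these counts were 123 higher of 166 near and 180 of 204 farther, and for ERV1 123 of 240 and 60 of 117. The nearness was not tested.

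Of the ERVL-MaLR units that rose most at 48 h, all 4 had 1 read in the 3 libraries at 0 h, so only the ratio with its counting interval is given. The unit chr14:15011401-15027801, over ORR1A1 and annotated as the lincRNA Gm31517, held 22.8, 38.2 and 46.5 scaled reads by 12 h and 172, 184 and 175 by 48 h, a ratio of 637 (95% interval 114 to 25203). The unit chr3:94126601-94137001 begins in MTA_Mm and held 22.0, 40.0 and 36.9 at 12 h and 118, 129 and 118 at 48 h, a ratio of 439 (78.4 to 17365). The others, over MTB near Ccny and over MTEa within the antisense RNA Gm30613, reached means of 144 and 95.1. All 4 were far above 0 h in each library from 12 h on.

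The ERVL-MaLR units that fell most ran antisense to genes. The unit chr8:81892801-81898201, opposite the phosphatase gene Inpp4b and ending in ORR1D2, went from 39.8, 31.6 and 46.3 scaled reads to 7.61, 15.5 and 11.4 by 12 h and 4.43, 2.32 and 0.764 by 48 h. The unit chr17:33570001-33602201, opposite the myosin gene Myo1f and ending in MTB, went from 208, 208 and 197 to 102, 109 and 112 by 12 h, 34.9, 31.8 and 23.9 by 24 h, and 17.0, 17.8 and 16.8 by 48 h. Neither had overlap between 0 and 12 h or between 12 and 48 h. Their log2 changes at 48 h were -3.65 (SE 0.341, adjusted p = 1.99e-11) and -3.50 (SE 0.156, adjusted p = 5.02e-20). No source used here states whether reads were counted by strand, and the part of the gene opposite in these values was not tested. Between 12 and 48 h, the MTA_Mm unit chr11:118469001-118474201 also fell back, from 34.9 ± 7.56 to 7.60 ± 1.37 (SD; log2 change -2.06, adjusted p = 4.34e-09), after values at 12 h that overlapped those at 0 h.

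The most abundant ERVL-MaLR unit, chr18:68691001-68692401 over MT-int, held 31222, 30965 and 28864 scaled reads at 0 h and 23371, 24429 and 28024 at 48 h. Its log2 change was -0.27 (adjusted p = 0.0412), and 0.09 after division by the median gene. It held 29.4% of ERVL-MaLR reads at 0 h. Without it the other 627 units summed to 73001 ± 3811 at 0 h and 64583 ± 2465 at 48 h (SD), 0.885-fold. The sum over the superfamily thus hides units that rose from 1 read to over 80 scaled reads in each library.

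Of 84 tested units over several superfamilies or another one, 42 were higher and none lower at 12 h. The background at that time was 29.4% higher and 11.1% lower. At 48 h 47 were higher and 22 lower (median 1.38), against 29.3% and 39.4%. Units that passed the minimum only because they rose are included. Only 61 members of this group passed the minimum at 0 h, and their calls are not given separately here. The unit chr5:32551201-32587601, which holds LTRIS2, LTRIS_Mus and ORR1A0 copies and the antisense RNA Gm15614, had the largest change of any member at 12 and at 24 h. From 2.44, 10.8 and 8.57 scaled reads it went to 91.2, 24.2 and 24.8 by 3 h and 748, 931 and 908 by 12 h. It then stood at 2073, 2443 and 1945 after 24 h and 2036, 2051 and 2058 after 48 h. At 3 h replicate 1 stood apart from the others, but all 3 libraries lay above 0 h, and the log2 change was 6.88 at 12 h (adjusted p = 3.18e-19). The unit chrX:5309601-5319201, over MERV1_I-int and ORR1B1-int, had no read before treatment, 60.9, 70.0 and 50.0 scaled reads by 12 h, and 148, 191 and 186 by 48 h. Taking 3 reads over the 0 h group as the floor, it was at least 209-fold higher at 48 h.

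By place relative to genes, of 123 tested units divergent from a gene start, 9 were higher and 54 lower at 48 h (median -0.41). Of 747 intergenic units 461 were higher and 157 lower (median 1.85), and of 200 antisense units 116 and 55 (median 1.47), against 29.3% higher and 39.4% lower of all tested units. The antisense count differs by superfamily: ERVL had 69 higher and 5 lower of 80, ERV1 25 and 18 of 54, and ERVL-MaLR 14 and 31 of 56. Place was not tested apart from superfamily. Of units over a GENCODE gene on the same strand, 30 of 84 were higher for ERV1, 63 of 89 for ERVL and 26 of 128 for ERVL-MaLR. Of the others these were 153 of 273, 240 of 281 and 62 of 233, and the difference was not tested. Members with at most 100 bases under an LTR copy, which barely met the rule, had 30 higher and 51 lower of 113. Units within 100 bases of such a copy without overlap, which just missed it, had 25 higher and 58 lower of 129. Both medians (-0.35 and -0.41) were close to that of units over no LTR copy.

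Genes known to act on these elements were read from 3 lists chosen with earlier results in view. Of 33 genes of LTR silencing, 31 were tested, and at 48 h none was called higher and 21 lower (median -0.36), against 7.65% higher and 58.4% lower of all tested genes. After division by the median gene, 10 were higher and 10 lower, near the shares of all 15261 tested genes (4527 higher and 4450 lower). Those with the smallest adjusted p were Ehmt2, an H3K9 methyltransferase (-0.71), Trim28 (-0.66), Cbx1, which encodes HP1 beta (-0.64), and Mphosph8 of the HUSH complex (-0.55). Of 30 listed genes known from the 2-cell stage and 2-cell-like cells, 25 were in the table and 14 passed the minimum, 8 of them with a mean under 10 at 0 h. Of the 14, 12 were higher and 1 lower at 48 h (median 4.78), and 12 and 1 after division by the median gene. Of the 6 with a mean of 10 or more at 0 h, 4 were higher and 1 lower (median 2.92). Zscan4f, a telomere regulator of 2-cell-like cells, went from a mean of 14.2 to 569 scaled reads and Zscan4d from 12.8 to 420. Zscan4b rose from 4.98 to 317 and Zscan4c from 5.29 to 261, but Zscan4 genes are near-identical copies whose reads may be split. The median of the 14 was 0.13 (3 h), 1.60 (12 h) and 2.67 (24 h), with the 8 included that passed the minimum only through later times. The part of 2-cell-like cells in the values of the MT2_Mm units was not tested. In these bulk samples, more cells of a kind and more RNA per cell cannot be told apart.

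Of 13 pluripotency factors that bind LTRs, 12 were lower at 48 h and 1 higher. After division by the median gene 10 were lower and 1 higher, against 4450 lower and 4527 higher of all 15261 tested genes. Tfcp2l1 (-1.09), Pou5f1 (-1.08), Esrrb (-0.99) and Nr5a2 (-0.94), which encode factors of the ES cell state, had changes below the -0.37 of the median gene. Zfp42 was the exception, at 1602 scaled reads at 0 h and 2898 at 48 h (log2 change 0.86, adjusted p = 6.24e-11), and is named after its value was seen.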

How the data were processed

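TT-seq was done on 15 libraries, 5 times with 3 biological repeats each, and each library was sequenced in 2 runs that share 1 column of the table. Reads were aligned to mm10 with STAR 2.5.2a, per the submitters' processing notes, which also name DESeq2 and deepTools. The deposited signal of a unit is its reads divided by 1 size factor per library: 99.997% or more of the values in each library were whole multiples (within 0.05) of a step of 0.636 to 0.936. How the authors set the factors, and whether the yeast spike-in entered them, is not known from the sources used here. The authors' own call per unit and time was copied as deposited.

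Members were non-coding units that overlap an LTR row on their strand but no ERVK row. The members and gene lists were chosen with earlier results of these data known. Differences were tested with limma 3.58.1 (trend, R 4.3.3) on log2(signal + 1), over all 15730 non-coding units with a mean of 10 or more, two-sided, with Benjamini-Hochberg adjustment, and genes likewise in a fit of their own. edgeR 4.0.16 and DESeq2 1.42.0 on the recovered reads were alternatives, beside other minimums, scalings and single libraries left out. Scripts were tested on simulated data. Named units were, at 48 h, the 4 that rose and the 2 that fell most per superfamily. At 3, 12 and 24 h they were the 2 that rose and the 1 that fell most, and from 12 to 48 h the 2 in each direction. All had 3 libraries on 1 side of the other 3 and a mean above the lowest 25%. The unit with the highest mean per superfamily, and families with 10 or more tested units, were added. Counting intervals cover counting error only. Promoter windows are RefSeq's, matched by position on the same assembly. No genome sequence was used here, so other LTR copies are named without sequence.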

Additional observations from a re-analysis of the deposited data

How the results depend on the processing

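Of the alternatives to the counts of members called, these moved a count by more than 1.5 times. At 3 h the 79 higher calls were 134 after division by the median gene, 27 with the minimum at 0 h, 48 with a fit of the compared groups only and 43 by DESeq2. The 105 lower calls at 3 h were 34 after division by the median gene, 54 without a minimum, 52 without the intensity trend, and 39 to 86 with single libraries left out. With the minimum at 0 h, fewer units that start low are tested, and the higher calls were 236 (of 488) at 12 h, 251 (of 613) at 24 h, 243 (of 621) at 48 h and 155 (of 494) from 12 to 48 h. Without a minimum more units are tested, and the higher calls were 1294 at 48 h and 1024 from 12 to 48 h. Division by the median gene changed the lower calls to 133 (of 57) at 12 h, 168 (of 302) at 48 h and 124 (of 343) from 12 to 48 h. It also turned the log2 change at 48 h of the highest ERVL unit, chr17:70963601-70964001, to 0.0677 and of the highest ERVL-MaLR unit, chr18:68691001-68692401, to 0.0947. The cause of the moves at 3 h was not tested. With 1 library left out, higher calls ranged from 415 to 503 at 12 h, 575 to 613 at 24 h and 609 to 625 at 48 h. Taking the reads under LTR copies away, an alternative chosen after seeing the data, left 525 higher and 298 lower at 48 h.

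The replicate numbers did not pair the libraries: over 30 pairs with the same number, the correlation of deviations from the group means was -0.0266 to 0.0553. With the replicate block in the fit, 624 members were higher and 309 lower at 48 h, and 81 and 117 at 3 h. Depth limits units below about 10 scaled reads, where single reads decide the values.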
